A study of Mus musculus with 2 samples.

Results

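The genes described here are Msx1, Msx2, Msx3, Pax3, Pax7 and Lmx1a, homeobox and paired-box transcription factor genes of the dorsal neural tube and roof plate, measured here in E10.5 mouse embryo brain. They were taken by symbol, and every probe set that the platform annotation assigns to one of the 6 symbols is reported, 11 of the 45101 probe sets on the array. A probe set is a group of short probes that reads 1 transcript region. The set was chosen by the KO and WT signals of these same arrays, which were known when it was drawn up, so the values of the members are a description and carry no test.

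The series holds 2 Affymetrix arrays, 1 hybridised with biotinylated cRNA of a sample labelled KO (knockout) and 1 with that of a sample labelled WT (wild type). Both carry the strain label C57BL/6, the tissue label brain and the stage E10.5, counted from the plug, and 250 ng of total RNA entered each labelling. The labels name neither the gene knocked out nor how it was deleted, and they give no sex and no number of embryos per sample. With 1 array per group there is no replicate error and no test between the groups, and every difference below is between these 2 arrays only.

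In the developing neural tube, the roof plate and the overlying ectoderm secrete BMP and Wnt proteins that pattern its dorsal side. The Msx homeobox genes respond to BMP and act mainly as repressors of transcription. Msx1 and Msx2 are used in many tissues, among them the roof plate, neural crest, head mesenchyme and limb, whereas Msx3 is known for its expression in the dorsal neural tube. Pax3 and Pax7 mark dorsal progenitors, and both also act in neural crest and muscle precursors. Lmx1a, a LIM homeobox gene, directs formation of the roof plate.

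The 3 Msx genes, paralogs that share a homeodomain, were higher in the KO array on each of their probe sets but by very different amounts, so the 250 bases before the transcription start of each are shown. The sequences are RefSeq's, assembly GRCm38.p6, all on the minus strand, at chr5:37824586-37824835 for Msx1, chr13:53472781-53473030 for Msx2 and chr7:140049089-140049338 for Msx3. Capitals mark matches on either strand to the CCAAT box (CCAAT or ATTGG), the TATA box (TATAAA or TTTATA) and the homeodomain core (TAAT or ATTA).
Msx1: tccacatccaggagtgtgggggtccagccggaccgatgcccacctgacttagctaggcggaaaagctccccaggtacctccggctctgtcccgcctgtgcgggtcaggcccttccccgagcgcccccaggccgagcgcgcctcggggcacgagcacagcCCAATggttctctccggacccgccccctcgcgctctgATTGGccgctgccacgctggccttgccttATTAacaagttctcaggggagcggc
Msx2: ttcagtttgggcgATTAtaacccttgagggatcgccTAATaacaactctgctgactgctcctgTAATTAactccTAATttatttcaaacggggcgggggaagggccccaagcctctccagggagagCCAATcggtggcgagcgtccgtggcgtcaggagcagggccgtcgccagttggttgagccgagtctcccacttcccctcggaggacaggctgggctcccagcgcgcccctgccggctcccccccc
Msx3: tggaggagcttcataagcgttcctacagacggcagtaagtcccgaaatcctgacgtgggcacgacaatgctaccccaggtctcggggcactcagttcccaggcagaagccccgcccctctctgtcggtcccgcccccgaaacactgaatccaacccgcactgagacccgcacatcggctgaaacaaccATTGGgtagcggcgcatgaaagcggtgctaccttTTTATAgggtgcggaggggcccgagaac
The Msx3 window holds 1 TATA match, whose first base lies 28 bases before the start, and 1 CCAAT match at 62 bases, and no match to the homeodomain core. The Msx1 window holds CCAAT matches at 91 and 54 bases and 1 homeodomain core at 25 bases. The Msx2 window holds 1 CCAAT match at 124 bases and 5 homeodomain cores between 237 and 176 bases before the start, of which the pair at 187 and 185 bases overlap. Over 32851 promoter windows of the same length, 33.8% held a CCAAT match, 12.4% a TATA match and 54.9% a homeodomain core. The Msx consensus TAATTG (or CAATTA), present in 7.17% of windows, and the GC-rich Smad site GGCGCC, present in 9.59%, had no match in any of the 3. These matches are letters in a window and not measured binding sites. Promoter sequences matched 5 of the 6 members, all but Pax3.

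Signals below are the deposited linear intensities, and differences are KO minus WT of log2(signal + 16), a scale on which the added 16 damps changes of dim probe sets. Msx3 stood apart from the other members. Its single probe set, 1421597_a_at, read 145.78 in the KO array and 5.91 in the WT array. The KO signal lay at the 80.5th percentile of its array and the WT signal at the 36.3rd percentile of its own. The ratio of the signals was 24.7 and the difference was 2.88. The ratio rests on a WT signal below the median of that array, 13.17, and the values used here carry no detection calls, so how much Msx3 transcript the WT sample held was not determined. Among the 1000 probe sets closest to it in mean level, the robust SD of the difference was 0.20. Of the 11 member probe sets, Msx3 was the only one at least 2-fold higher in KO, where 0.120% of all 34958 probe sets with 1 gene symbol were, and none was at least 2-fold lower, where 0.0715% were. Since the choice of members used this contrast, nothing is read from that count.

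**Figure D1:**
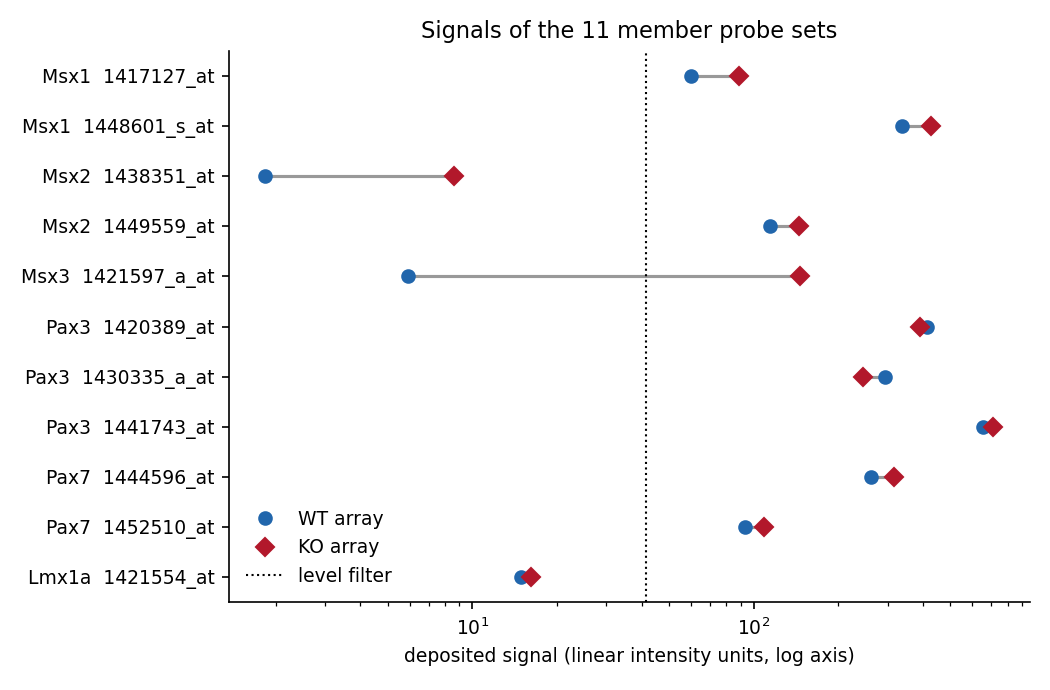
Deposited signals of the 11 member probe sets on a log axis, with a circle for the WT array and a diamond for the KO array (1 array each, no error bars), and the level filter at a signal of 41.6 as a dotted line. Msx3 spans the filter, from 5.91 in WT to 145.78 in KO, while Lmx1a and the dim Msx2 probe set lie below it in both arrays.

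Msx1 was measured by a pair of probe sets that gave similar differences. The first, 1448601_s_at, read 428.28 in KO and 336.97 in WT, a difference of 0.33. The second, 1417127_at, read 88.97 and 60.15, a difference of 0.46. Both were higher in the KO array, by 27.1% and 47.9% of the WT signal. At their levels the robust SD of the difference was 0.11 and 0.19, and 3.6% and 3.9% of the 1000 probe sets closest in level were as far apart in either direction. The suffix of the first marks a probe set whose probes may match transcripts of more than 1 gene, so its signal may not be from Msx1 alone.

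Msx2 was also higher on both of its probe sets. The brighter, 1449559_at, read 144.79 in KO and 113.99 in WT, a difference of 0.31 against a robust SD of 0.15 at its level, where 8.1% of probe sets were as far apart. The other, 1438351_at, read 8.64 and 1.84, under the array medians in both samples. Its ratio of 4.70 became a difference of 0.47 on the damped scale, of 1.76 with a pseudocount of 1, and of 0 with all signals under 16 set to 16. The size for Msx2 therefore rests on the brighter probe set.

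Pax3 gave no single direction. Its probe sets, all well above the level filter of 41.6, split between the arrays. On 1441743_at the KO array read 712.16 and the WT array 652.45, a difference of 0.12. On 1420389_at the signals were 389.57 and 412.97, a difference of -0.08. On 1430335_a_at they were 245.06 and 293.13, a difference of -0.24. The mean of the 3 differences was -0.07. Across the 3628 genes that had 2 or more such bright probe sets, the pooled within-gene SD of the difference was 0.16, and of the 3 Pax3 differences only that of 1430335_a_at was farther from 0 than this. A summary that keeps only the probe set with the highest mean would call Pax3 higher, and 2 of its 3 probe sets were lower.

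Pax7, the paralog of Pax3, was higher in KO on both probe sets. On 1444596_at the KO array read 316.43 and the WT array 262.58, a difference of 0.25. On 1452510_at the signals were 109.35 and 93.56, a difference of 0.19. The robust SD at these levels was 0.12 and 0.16, and 9.7% and 24.3% of the 1000 probe sets closest in level were as far apart, so differences of this size were common.

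Lmx1a was dim, at 16.20 in KO and 14.96 in WT on its single probe set, 1421554_at, near the array medians. The difference was 0.06, under the robust SD of 0.21 at that level. No difference of Lmx1a was detectable at these signals, which does not show that the samples held equal amounts.

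Without Msx3, the differences of the other 10 member probe sets lay between -0.24 and 0.47, and 8 of them were higher in KO. Over all probe sets with 1 symbol, 49.4% were higher in KO. Of the 11 member probe sets, 9 passed the level filter, the median over genes of the mean level. A probe set passed if its higher signal did, and Msx3 passed only through its KO signal.

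**Figure D2:**
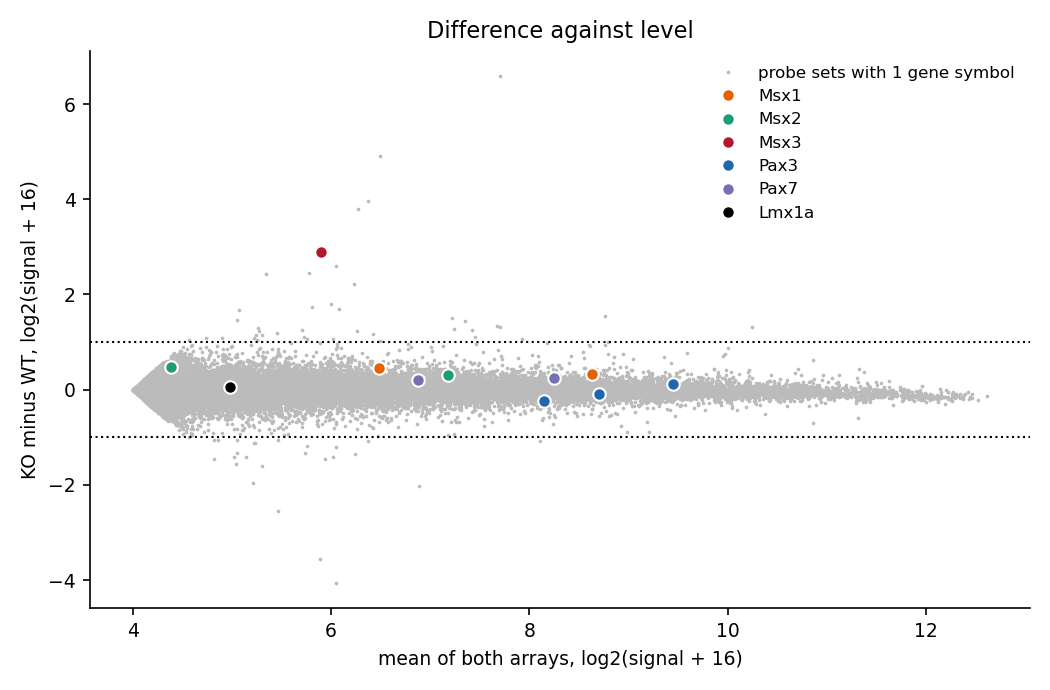
Difference between the arrays (KO minus WT, log2(signal + 16)) against the mean of both arrays on the same scale, for 34958 probe sets with 1 gene symbol (grey) and the 11 member probe sets (coloured), 1 array per group, with dotted lines at 2-fold. Msx3 lies at 2.88, outside the cloud, and the other 10 lie between -0.24 and 0.47.

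Msx3 stayed past 2-fold under each of 7 other settings of scaling, pseudocount or floor, with differences from 1.58 to 4.41. A pseudocount or floor cannot turn a sign, and the medians of the arrays were nearly equal, so only quantile normalisation and the loess could have done so. Under both, each of the 11 probe sets kept its sign.

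**Figure D3:**
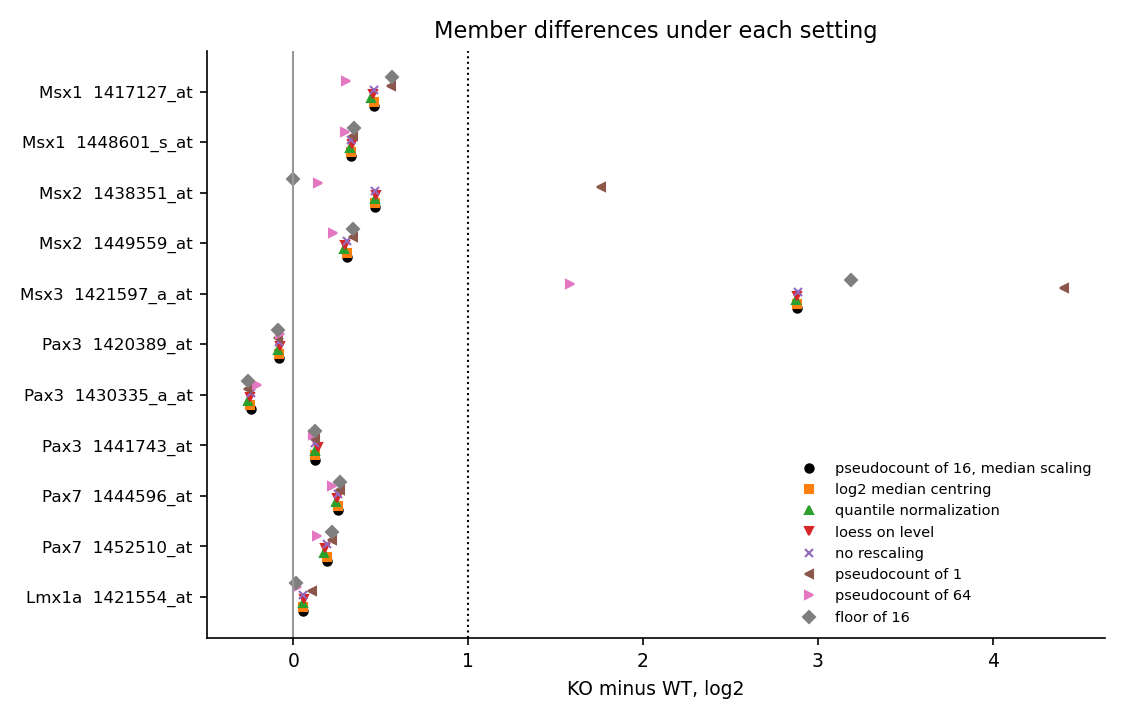
Difference between the arrays (KO minus WT, log2) for each member probe set under the setting used in the text and 7 others, 1 marker per setting, with the dotted line at 2-fold. Msx3 moves between 1.58 and 4.41 with the pseudocount, the dim Msx2 probe set between 0 and 1.76, and the remaining 9 stay below 2-fold.

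Genes that act with the members were read from lists, each gene being represented by its brightest probe set (highest mean of both arrays). The lists were compiled with earlier results of these arrays known. Over all 18194 genes, 0.154% were at least 2-fold higher in KO, 0.0715% at least 2-fold lower, 50.3% higher by any amount, and the median difference was 0.0011. The roof plate list, which holds Lmx1a and the secreted BMP, Wnt and R-spondin factors, had 9 of 14 measured genes higher and none 2-fold apart in either direction, with a median of 0.09. Lmx1b, the paralog of Lmx1a, read 67.77 against 43.20 (0.50) on its brighter probe set and 1.03 against 4.46 on the other. Bmp7, a roof plate BMP, was higher on all 3 of its probe sets, by 0.36, 0.24 and 0.28. Rspo3, a secreted enhancer of Wnt signalling, was lower at 309.84 against 388.58 (-0.31). Its paralog Rspo2 was also lower (-0.26), and Rspo1 was higher at 360.05 against 313.45 (0.19). Wnt1, just below the level filter, had the largest difference of the list at 41.10 against 22.24 (0.58).

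Among dorsal progenitor transcription factors other than the members, 6 of 12 were higher, with a median of 0.04. Zic2, a zinc finger gene of the dorsal tube, had the largest difference of those above the filter (0.57), and Neurog1, a proneural gene, was at 336.91 against 394.94 (-0.22). Singled out after their values were seen, Olig3 and Atoh1, which mark the progenitors nearest the roof plate, read 40.28 against 9.35 and 38.29 against 9.61. Their differences of 1.15 and 1.08 passed 2-fold just below the level filter. Both lay below the level filter in both arrays. Of the more ventral progenitors of the dorsal tube, Gsx1 read 1.07 against 15.48 (-0.88), Ptf1a 0.87 against 11.30 (-0.69) and Gsx2 1.42 against 0.31 (0.09). All of these lay below the level filter in both arrays, with the WT signals of Gsx1 and Ptf1a near that array's median of 13.17.

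BMP signalling, which induces Msx genes, was read in separate lists of its ligands, receptors and antagonists and of its effectors and targets. Of 17 ligands, receptors and antagonists, 5 were higher and none was 2-fold apart, with a median of -0.06. Bmp4, a dorsal ligand, read 138.67 against 109.14 (0.30). The antagonist Fst was lower on both of its probe sets, at 149.80 against 183.27 (-0.27) and 46.27 against 79.09 (-0.61). The other measured antagonists lay below the level filter in both arrays and went both ways. Grem1 read 34.38 against 10.35 (0.93) and Chrd differed by 0.12. Nog (-0.55), Bmper (-0.31) and the brightest Chrdl1 probe set (-0.13) were lower, and another Chrdl1 probe set differed by 0.50. Of 14 effectors and readouts other than Msx1 and Msx2, 8 were higher, with a median of 0.06 and none 2-fold apart. Id4, an inhibitor of bHLH factors, was higher on its 3 probe sets, by 0.38, 0.19 and 0.58. Hey1 was lower at 90.91 against 116.07 (-0.31). Id1, a direct BMP target, read 1099.40 against 945.05 (0.21), and Id3 1897.38 against 1932.93 (-0.03), both named for their place in the pathway.

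The other Pax and Lmx genes were mostly dim, with 3 of 7 above the filter. Pax8 read 43.61 against 9.20 (1.24) on 1 probe set and 4.68 against 4.70 on the other. It passed the filter of 41.6 only through the KO signal of the first. Pax6, which is expressed in the intermediate and ventral tube and overlaps Pax3 and Pax7 dorsally, read 341.36 against 429.99 (-0.32) and 60.12 against 79.74 (-0.33) on its probe sets above the filter. Of 12 intermediate and ventral progenitor genes, 10 were lower in KO, with a median of -0.19, and Dbx1, an intermediate progenitor gene, was the farthest at 419.35 against 785.59 (-0.88). Only 4 of the 12 passed the filter, and the median over all 12 was 0 with signals under 16 set to 16. Those 4, Dbx1, Pax6, Irx3 (-0.21) and Irx5 (-0.20), were all lower, with a median of -0.26. In the dorsal interneuron list, 7 of 14 were higher, with a median of -0.01. Of this list, Lhx2, Barhl2, Lhx9 and Barhl1 are also used as markers of neurons that descend from Atoh1 progenitors. On their brightest probe sets they were lower in KO, whereas Atoh1, below the filter in both arrays, was higher. Lhx2 read 59.37 against 104.20 (-0.67), Barhl2 36.23 against 64.57 (-0.63) and Lhx9 143.67 against 170.82 (-0.23), all above the filter. Barhl2 passed it only through its WT signal. The further Lhx9 probe sets differed by -0.30, -0.09 and 0.06. The dim Barhl1 differed by -0.42 on 1 probe set and -0.02 on the other. These 4 genes were likewise named with values known. Which cells their signals came from was not determined.

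**Figure D4:**
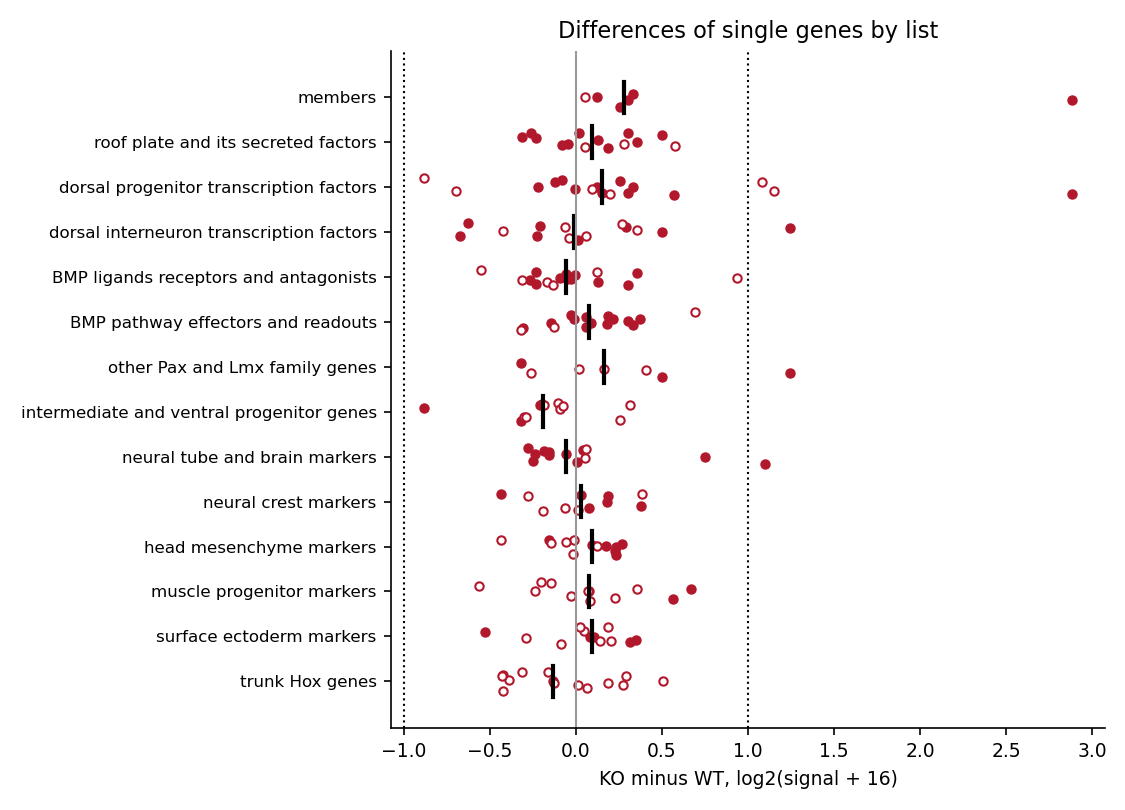
Difference between the arrays (KO minus WT, log2(signal + 16)) for each gene of 14 lists, 1 point per gene, filled where the gene passed the level filter and open where it did not, with a bar at the list median and dotted lines at 2-fold. Msx3 is the farthest point of all 14 lists at 2.88, and the list medians other than that of the members lie between -0.19 and 0.16.

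Several members are also expressed outside the neural tube, and a bulk sample cannot tell fewer cells of a type from less RNA per cell. Although the sample titles speak of the embryo, the arrays read neural genes: 11 of 13 neural tube and brain markers passed the filter, among them Sox2 at 1514.88 and 1686.94, while 0 of 14 trunk Hox genes did. En1, a midbrain and hindbrain gene, was 2-fold apart at 61.42 against 20.09 (1.10) and passed the filter only through its KO signal. Its paralog En2 read 1291.23 against 761.16 (0.75). Otx2, at 1819.68 against 2203.08, was the lowest of the list (-0.27). Of the 13, 6 were higher. How much of each brain region the samples held was not determined, and its part in the Msx3 difference was not tested. For neural crest, 7 of 11 markers were higher with a median of 0.03, and summed signals were 1109 in KO and 1088 in WT, with Sox10 and Foxd3 near 0. Ednrb (-0.43) and Ngfr (0.38) were the farthest apart above the filter, Ngfr only through its KO signal. Head mesenchyme markers had 7 of 13 higher with a median of 0.09 and summed signals of 2655 and 2634. Twist1 (0.27) and Prrx2 (0.23) were the farthest apart above the filter. Those that passed the filter had a median of 0.23, and of these only Col3a1 was lower. Its brighter probe set, the largest part of both sums, read 1397.76 against 1554.40 (-0.15). The other Col3a1 probe set differed by 0.17. Muscle progenitor markers had 7 of 12 higher with a median of 0.08 and summed signals of 235 and 181, but only 2 of the 12 passed the filter, Eya1 at 70.55 against 38.50 (0.67) and Six4 at 86.94 against 53.63 (0.56). Only in the KO array was Eya1 above the filter. Below it, Eya2 read 13.86 against 28.04 (-0.56), and Myf5 was at 0.95 and 0.05. Surface ectoderm markers had 9 of 12 higher with a median of 0.09 and summed signals of 272 and 250, with Esrp1 at -0.53 and Epcam at 0.35. None of the genes in these 4 lists was 2-fold apart, and their part in the differences of Msx1, Msx2 and Pax7 was not tested.

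Sex-linked transcripts also separated the arrays. Xist read 2022.54 in KO and 5.19 in WT, and Eif2s3y, Kdm5d and Uty read 0.27, 1.22 and 2.21 in KO against 253.61, 186.64 and 90.92 in WT. This difference and the genotype labels cannot be told apart with 1 array each, for Msx3 as for the other members.

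The genes above the filter whose difference lay closest to that of Msx3 over the 2 arrays were G530011O06Rik (2.43), Fgf17 (2.22), Desi1 (3.97), Fgf8 (1.80) and Cldn10 (1.73). Each passed the filter only through its KO signal. With 2 arrays a pattern is a single difference, so this likeness is one of size alone.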

How the data were processed

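RNA of 1 KO and 1 WT sample was measured on 1 Affymetrix array each. The authors deposited linear intensity values per probe set, made with Affymetrix Expression Console per the submitters' processing notes. The summary algorithm is not given in the sources used here. The mean without the lowest and highest 2% of probe sets was 100.0 in both arrays, so the authors' values share a global scale. Signals ran from 0.03 to 5983 in KO and 0.01 to 6549 in WT, and the number of arrays limits the precision.

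Arrays were scaled to one median and taken as log2(intensity + 16). Of the probe sets, 34958 had 1 symbol, 932 several and 9211 none here. Of those with 1 symbol, 34754 matched RefSeq (GRCm38.p6) by Entrez number. For lists, a gene was represented by its brightest probe set, and 9294 genes passed the level filter (higher array at or above the median gene mean). The robust SD is 1.4826 times the median absolute deviation. The code was checked on simulated data with known shifts, put on bright probe sets only. That check did not cover dim probe sets and says nothing about whether any difference here is real.

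Members and lists were chosen with earlier results of these data known. Named from each list were genes at least 2-fold apart above the filter, or else the 2 farthest apart above it, and the 5 genes closest to Msx3. Rspo3, Id1, Id3, Fst, Col3a1, Sox2, Sox10, Foxd3, Myf5, Eya2, Gsx1, Gsx2 and Ptf1a were added with values known. Also added with values known were Rspo1, Rspo2, Wnt1, Grem1, Chrd, Nog, Bmper, Chrdl1, En2, Otx2, Irx3 and Irx5. So were the further probe sets of Lmx1b, Pax8, Lhx9 and Barhl1. Alternatives covered scaling, pseudocount, floor, threshold, level filter and probe set rule. List genes that no single-symbol probe set named were not analysed here. Python 3.11.15, numpy 2.4.6, pandas 2.3.3, statsmodels 0.14.6 (loess span 0.3) and matplotlib 3.10.9 were used.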

Additional observations from a re-analysis of the deposited data

How the results depend on the processing

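No paired analysis was possible because KO and WT have 1 array each, which also leaves no replicate to omit. The Msx3 difference was 4.41 with a pseudocount of 1, 1.58 with one of 64 and 3.19 with a floor of 16, and it moved by less than the robust SD at its level under the 4 other scalings. Member probe sets at least 2-fold higher numbered 2 with a pseudocount of 1, the second being the dim Msx2 probe set, and none was lower under any of 9 alternatives. Of 77 recomputed member differences, 6 moved by more than the robust SD at their level, all in Msx3 or the dim Msx2 probe set, and none that was past 2-fold changed sign. Over all genes above the filter, 22 were at least 2-fold higher and 8 lower. These counts became 36 and 16 when 1 was added to the signals, 9 and 4 when 64 was added, 39 and 20 with the floor, 77 and 55 at 1.5-fold, 9 and 5 at 3-fold and 7 and 2 with a filter at the 75th percentile. Without a filter 13 were lower. Of 146 recomputed list medians, 6 moved by more than 0.16, the SD between probe sets of 1 gene. The roof plate median was -0.079 when only its genes past the 75th-percentile filter were kept. Lists with fewer than 3 members at such a filter gave no value.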

Other observations

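The genes beside Msx3 on its chromosome differed less than Msx3. Of the 5 measured genes on each side, 7 of 10 were higher in KO, none was 2-fold apart on the log2(signal + 16) scale, and the median was 0.07. The nearest on either side were Zfp511, a zinc finger gene, at 91.37 in KO against 79.03 in WT (0.18), and Caly at 21.15 against 6.64 (0.71), the latter below the level filter. In the deposited signals Caly, Prap1 (5.21 against 1.35) and Spef1l (2.47 against 7.70) were more than 2-fold apart, all at dim levels that the added 16 damps. Further out, Tubgcp2, a subunit of the gamma-tubulin complex, read 174.00 against 168.20 (0.04), and Echs1, a mitochondrial enzyme gene, 559.57 against 584.57 (-0.06). None of the 10 measured neighbours of Msx1, Msx2, Pax3, Pax7 or Lmx1a was 2-fold apart on that scale, with medians from -0.04 for Pax7 to 0.13 for Msx1. These neighbours were looked at after the member values were known.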
